A study of Oryza sativa with 23 samples.

Results

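The alternative oxidase genes of rice were followed through roots and leaves of plants given excess iron. The set holds 5 of the 35679 genes in the count tables, chosen by identifier and not by any measured value: AOX1a (OS04G0600200), AOX1b (OS04G0600300), AOX1c (OS02G0700400), AOX1d (OS02G0318100) and the plastid terminal oxidase, written PTOX here (OS04G0668900). The count tables give identifiers only, so the names are those under which the genes were selected. The identifiers place AOX1a, AOX1b and PTOX on chromosome 4 and AOX1c and AOX1d on chromosome 2 of the build IRGSP-1.0, and each gene is represented by 1 transcript, between 1062 and 1578 bases long.

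RNA was sequenced from whole roots and L2 leaves of Oryza sativa plants, 11 days old at harvest, of the varieties Hacha and Lachit. For 2 days, from an age of 9 days, plants stood either in the control solution, which held 50 µM Fe as sodium EDTA at pH 6.2, or in a full-strength Hoagland solution of pH 5.2 that also held 15 mM Fe sulfate, called excess iron here. Iron, its salt and the acidity changed together and cannot be told apart. Variety, organ and solution give 8 groups and 23 libraries, all groups having 3 libraries except the excess-iron roots of Hacha, which had 2. The labels do not say whether replicates came from separate plants, so p-values measure the spread between these libraries, which may be technical.

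Alternative oxidases sit in the inner mitochondrial membrane and pass electrons from ubiquinol straight to oxygen, bypassing the proton-pumping cytochrome pathway. They are di-iron enzymes, and plants are known to use them when the respiratory chain is restricted or over-reduced, which limits the formation of reactive oxygen species. AOX1a and AOX1b are known in rice as stress-responsive genes that lie next to each other. The plastid terminal oxidase is a related di-iron enzyme of the thylakoid membrane. It oxidises plastoquinol, and is known for its part in carotenoid synthesis and in relieving the photosynthetic electron chain.

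Libraries held between 16659607 and 33386840 estimated counts. A principal component analysis of all libraries, on log2 CPM (counts scaled to library size), put 50.5% of the variance on its first component, which separated roots, at -234.6 to -123.8, from leaves, at 97.1 to 220.4. Marker genes of the organs were not used here, because the identifiers are not annotated. Within leaves, 2 libraries stood apart from their groups on the first component. Hacha control library 1 lay at -60, against -145.1 and -140.6 for the other Hacha controls, and Lachit excess-iron library 3 at -34, against 58.1 and 108.2. Leaf results that lost or gained a call without these libraries are also given without them. Hacha excess-iron library 1 lay at 246.1, against 189.7 and 192.5, and was not among the libraries left out together; values without it are given beside the AOX1b results of Hacha leaves. In whole organs, a change in the number of cells that express a gene cannot be told apart from a change of RNA per cell.

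The RNA of AOX1a, AOX1b, AOX1d and PTOX was higher under excess iron in both organs of both varieties. The PTOX calls depended on the fit in roots and on single libraries in leaves. AOX1c passed the test in none of the 4 comparisons when the 4 groups of an organ were fitted together. The largest rise was that of AOX1b in Hacha leaves, about 102-fold. A gene was called at an adjusted p below 0.05 in edgeR's quasi-likelihood test with Benjamini-Hochberg adjustment over all tested genes. All 5 genes passed the filter on low counts in both organs. In each comparison 4 of the 5 genes were called, all of them higher. Of all tested genes, 62.3% were called in Hacha roots (29.6% higher), 58.7% in Lachit roots (29.4% higher), 65.3% in Hacha leaves (32.4% higher) and 38.7% in Lachit leaves (19.7% higher). The excess-iron TPM values lay above all control values, with no overlap, for 4 of the 5 genes in Hacha roots (25.6% of all tested genes), 4 in Lachit roots (25.9%), 3 in Hacha leaves (31.4%) and 5 in Lachit leaves (37.6%). The median log2 fold change over the 5 genes was 1.97, 2.01, 3.91 and 2.81 in these comparisons, and that over all tested genes lay between -0.05 and 0.02.

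**Figure D1:**
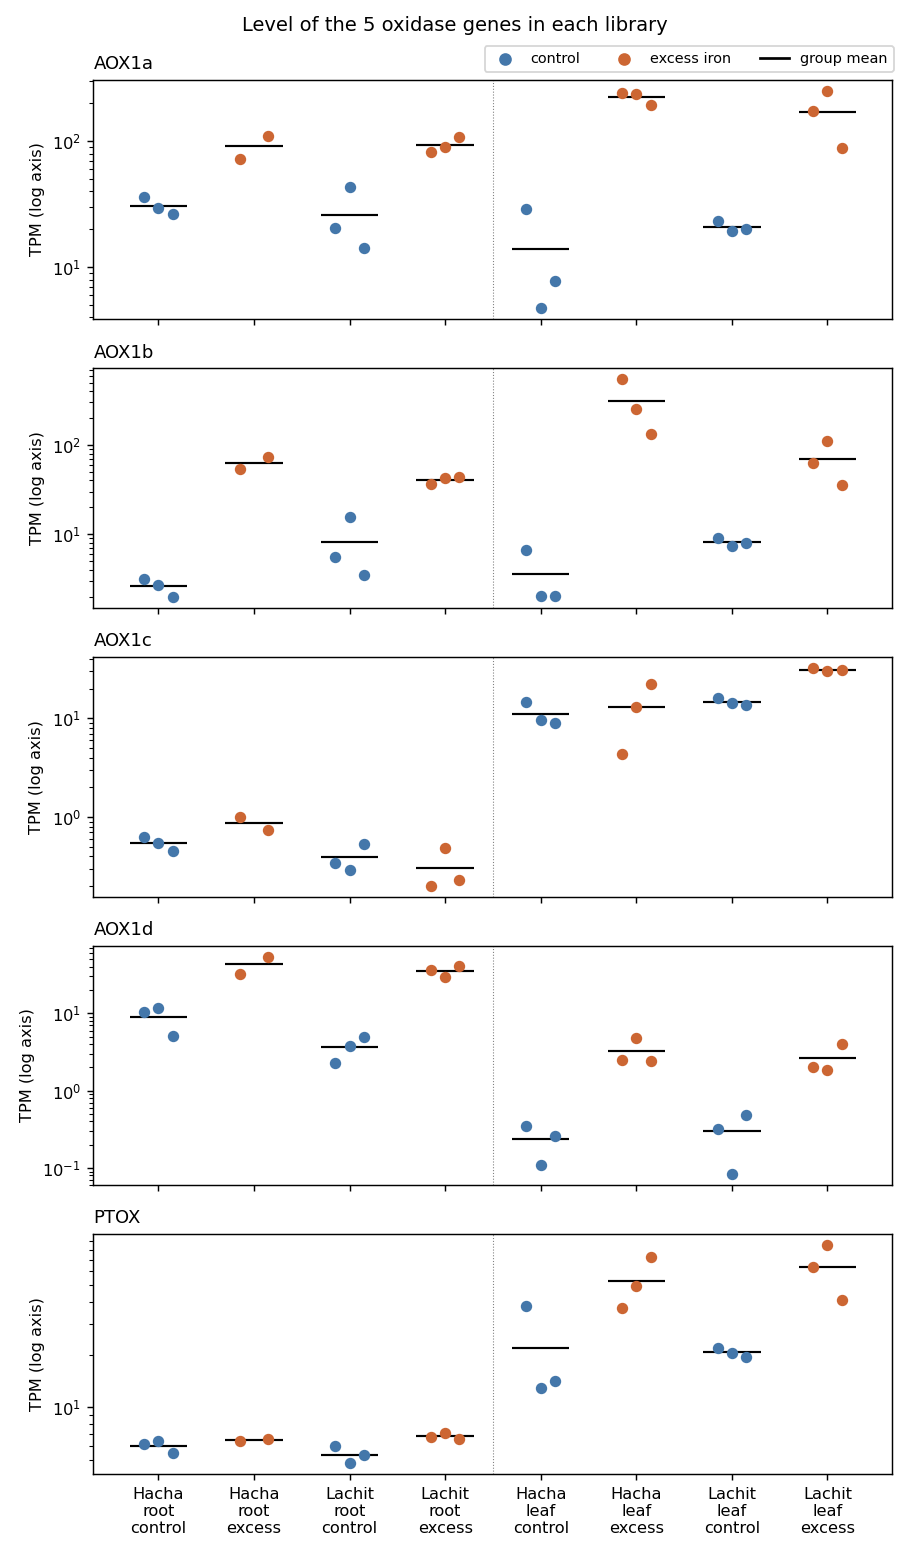
Level of each gene in every library, in TPM on a log axis, with 1 point per library and a line at the group mean. AOX1a and AOX1b lie higher under excess iron in every group pair, AOX1c is a leaf gene with at most 1.0 TPM in every root library, and AOX1d is a root gene with less than 5 TPM in every leaf library.

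AOX1a was the most abundant of the mitochondrial genes in roots. In TPM, a level per transcript length, its 3 control root libraries of Hacha stood at 36.2, 29.8 and 26.4 and the 2 excess-iron libraries at 72.7 and 111 TPM. In Lachit roots the controls held 20.4, 43.8 and 14.2 TPM and the excess-iron libraries 83, 90.3 and 108 TPM. The excess-iron libraries lay above all controls in both varieties. The log2 fold change was 1.97 (SE 0.38, adjusted p = 0.00101) in Hacha and 2.01 (SE 0.36, adjusted p = 0.0006) in Lachit, about 4-fold in each. Without Lachit control library 2, the highest of the root controls, the Lachit value was 2.61. In leaves AOX1a reached the higher levels: Hacha went from 29.1, 4.71 and 7.82 TPM in control to 244, 236 and 194 TPM. Lachit leaves went from 23.1, 19.3 and 20.3 TPM to 175, 253 and 88.1 TPM. No excess-iron leaf library overlapped a control. The leaf log2 fold changes were 4.19 in Hacha (SE 0.65, adjusted p = 0.000259) and 2.81 in Lachit (SE 0.61, adjusted p = 0.00549). Hacha control library 1, which stood apart, was the highest leaf control, and without it the Hacha value was 5.25.

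AOX1b had the lowest levels of the neighbouring pair in control plants and, in Hacha, the highest log2 fold change of the 5 genes. In Lachit roots AOX1d had the higher value, and in Lachit leaves AOX1a, AOX1b and AOX1d had 2.81, 2.87 and 2.82. Hacha control roots held 3.16, 2.68 and 1.97 TPM, and the excess-iron roots 53.3 and 72.9 TPM. Lachit control roots held 5.62, 15.5 and 3.49 TPM, and the excess-iron roots 36.5, 42.6 and 43.6 TPM. The control range of Lachit thus lay above that of Hacha, and the excess-iron range below it. The log2 fold changes were 4.97 in Hacha roots (SE 0.51, adjusted p = 9.16e-06) and 2.48 in Lachit roots (SE 0.43, adjusted p = 0.000469). The Lachit value was 3.34 without control library 2. Hacha leaves went from 6.62, 2.02 and 2.02 TPM to 545, 250 and 134 TPM, which is 6.67 on the log2 scale (SE 0.81, adjusted p = 5.32e-05). Lachit leaves went from 9.06, 7.31 and 8.03 TPM to 62.7, 110 and 36 TPM, which is 2.87 on the log2 scale (SE 0.67, adjusted p = 0.0078). The Hacha leaf value was 7.39 without control library 1 and 5.73 without excess-iron library 1, which had the highest AOX1b level of the series. In Hacha leaves 98.9% of tested genes had a lower log2 fold change than AOX1b, and in Hacha roots 99.1%.

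AOX1d was the root member of the family. Control roots held 10.5, 11.8 and 5.04 TPM in Hacha and 2.3, 3.74 and 4.95 TPM in Lachit, and excess-iron roots 32 and 54.3 TPM in Hacha and 36.4, 29.3 and 40.6 TPM in Lachit. The varieties differed in control roots without overlap and overlapped under excess iron. The log2 fold changes were 2.63 in Hacha (SE 0.39, adjusted p = 0.000142) and 3.43 in Lachit (SE 0.39, adjusted p = 2.35e-05). Leaves had little of it: control leaves held 2 to 10 reads per library, at most 0.485 TPM, and excess-iron leaves 35 to 106 reads, between 1.83 and 4.87 TPM. In log2 units the leaf rise was 3.91 in Hacha (SE 0.58, adjusted p = 0.000186) and 2.82 in Lachit (SE 0.55, adjusted p = 0.00324). On log2(TPM + 1) values these leaf changes were 1.74 and 1.45, both called by limma.

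AOX1c showed the opposite distribution between the organs, and its response was called only in some of the alternative fits. In roots it had 5 to 19 reads per library and at most 1 TPM. Its root log2 fold change was 1.03 in Hacha (95% interval 0.06 to 2.01, adjusted p = 0.0622) and -0.21 in Lachit (-1.17 to 0.76, adjusted p = 0.705). Control leaves held 14.7, 9.71 and 9.01 TPM in Hacha and 16, 14.4 and 13.5 TPM in Lachit. Excess-iron leaves of Hacha spread over 4.38, 13 and 22 TPM, on both sides of their controls. Those of Lachit stood close together at 32.4, 30 and 30.5 TPM, above all their controls. The leaf log2 fold changes were 0.29 in Hacha (95% interval -0.56 to 1.14, adjusted p = 0.525) and 0.8 in Lachit (-0.04 to 1.65, adjusted p = 0.119). When only the 2 groups compared were fitted, the Hacha root change was 1.04 with an adjusted p of 0.0425 and the Lachit leaf change 0.83 with an adjusted p of 0.00751, and with both organs in 1 fit the latter was 0.83 with an adjusted p of 0.048. Among the excess-iron leaves of Hacha, library 1 with the most AOX1b had the least AOX1c and the least PTOX, and library 3 with the least AOX1b had the most of both.

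**Figure D2:**
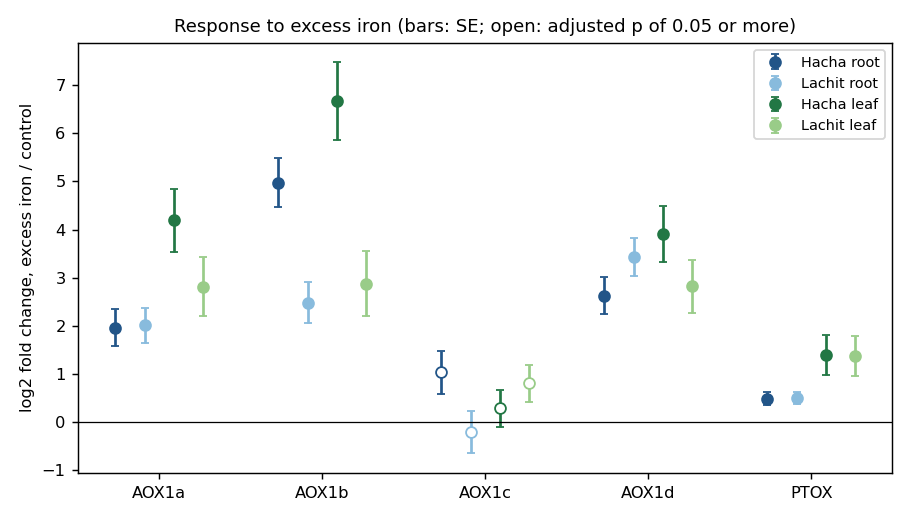
Log2 fold change of each gene under excess iron against control in the 4 combinations of variety and organ, with bars of 1 SE. Filled points had an adjusted p below 0.05. AOX1b has the highest point, at 6.67 in Hacha leaves, and the 4 points of AOX1c are open.

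PTOX, the plastid enzyme, was a leaf gene with a modest rise. Control leaves held 38.2, 12.8 and 14.2 TPM in Hacha and 22, 20.5 and 19.4 TPM in Lachit. Excess-iron leaves held 37.3, 49.2 and 72.2 TPM in Hacha and 64.1, 84.9 and 41 TPM in Lachit. The Lachit groups did not overlap, and the Hacha groups overlapped through control library 1. The log2 fold changes were 1.4 in Hacha leaves (SE 0.41, adjusted p = 0.012) and 1.38 in Lachit leaves (SE 0.41, adjusted p = 0.023), about 2.6-fold in each. Without Hacha control library 1 the Hacha value was 2.0 (adjusted p = 0.000948), and without the 2 libraries that stood apart the values were 1.96 (adjusted p = 7.37e-05) and 1.7 (adjusted p = 0.000256). The Hacha call was lost without control library 3 (adjusted p = 0.0607). The Lachit call was lost without any 1 of control libraries 1, 2 and 3 or excess-iron libraries 1 and 2, with adjusted p between 0.0568 and 0.0962.

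In roots PTOX stayed between 4.79 and 7.17 TPM in all 11 libraries. The edgeR log2 fold change was 0.49 in Hacha (SE 0.13, adjusted p = 0.00799) and 0.5 in Lachit (SE 0.12, adjusted p = 0.00346), about 1.4-fold, although the mean TPM of Hacha differed little, at 6.01 in control and 6.47 under excess iron. The Hacha value depended on the scaling. It was 0.22 (adjusted p = 0.178) when counts were scaled by library totals alone and 0.09 (adjusted p = 0.537) on log2(TPM + 1) with limma. Without Hacha excess-iron library 2 it was 0.42 (adjusted p = 0.0608). With both organs in 1 fit neither root change was called, with adjusted p of 0.278 and 0.265.

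Summed over AOX1a, AOX1b, AOX1c and AOX1d, the mitochondrial oxidase RNA was 4.62-fold higher under excess iron in Hacha roots, 4.43-fold in Lachit roots, 19.1-fold in Hacha leaves and 6.26-fold in Lachit leaves, as ratios of mean TPM. The sums were 43.1 ± 8.46 (SD, n = 3) against 199 ± 56.7 TPM (n = 2) in Hacha roots and 38.4 ± 21.8 against 170.3 ± 19.2 TPM (n = 3 each) in Lachit roots. In leaves they were 28.8 ± 19.0 against 551 ± 226 TPM in Hacha and 43.99 ± 3.98 against 275 ± 118 TPM in Lachit (n = 3 each). Control and excess-iron libraries did not overlap in any of these pairs. These ratios lack the TMM scaling of the gene-level fold changes, so comparing them between varieties depends on the scaling. For AOX1a the log2 fold changes with TMM were 1.97, 2.01, 4.19 and 2.81, in the order of the ratios above. With library totals alone they were 1.69, 1.9, 4.05 and 3.02. Without Hacha control leaf library 1 the Hacha leaf fold was 30.9, and without Hacha excess-iron leaf library 1 it was 14.9. Without Lachit excess-iron leaf library 3 the Lachit leaf fold was 7.59, and without Lachit control root library 2 the Lachit root fold was 6.57. An exact two-sided permutation test, with solution permuted within variety, gave p = 0.005 in root and p = 0.005 in leaf, the smallest value that each design allows, and 0.00667 after Benjamini-Hochberg adjustment over 4 tests.

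The make-up of this sum differed between organs and solutions. In control roots AOX1a held 72.1% ± 5.7 (SD, n = 3) of the sum in Hacha and 67.2% ± 5.2 (n = 3) in Lachit, and under excess iron 46.1% ± 0.54 (n = 2) and 54.9% ± 1.5 (n = 3). The mean change over the varieties was -19.1 percentage points, with p = 0.005 in the same exact permutation test (adjusted 0.00667). AOX1d kept similar mean shares in Hacha roots, 20.6% and 21.4%, and had 11.7% ± 8.4 in control and 20.8% ± 2.7 in excess-iron roots of Lachit (SD, n = 3 each). The Lachit control shares were 8.0%, 5.91% and 21.3%, so library 3 lay within the excess-iron range, and without it the control mean was 6.96%. In control leaves AOX1c held 44.9% ± 15 in Hacha and 33.3% ± 1.6 in Lachit (n = 3 each), and under excess iron 3.13% ± 2.9 and 12.9% ± 5.9. Without Hacha control library 1 the Hacha control share was 52.9%, without Hacha excess-iron library 3 the Hacha excess-iron share was 1.56%, and without Lachit excess-iron library 3 the Lachit excess-iron share was 9.74%. In Hacha leaves AOX1a held 42.2% ± 14.4 in control and 44.2% ± 12.4 under excess iron, with overlap. In Lachit leaves it held 47.6% ± 0.49, between 47.0% and 48.0%, and 61.3% ± 5.0, between 55.5% and 64.4%. The mean change of this leaf share over the varieties was 7.85 percentage points, with p = 0.22 in the exact permutation test (adjusted 0.22). The varieties were not tested apart. Without the 2 leaf libraries that stood apart the mean change was 13.1 points, with an exact permutation p of 0.05.

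**Figure D3:**
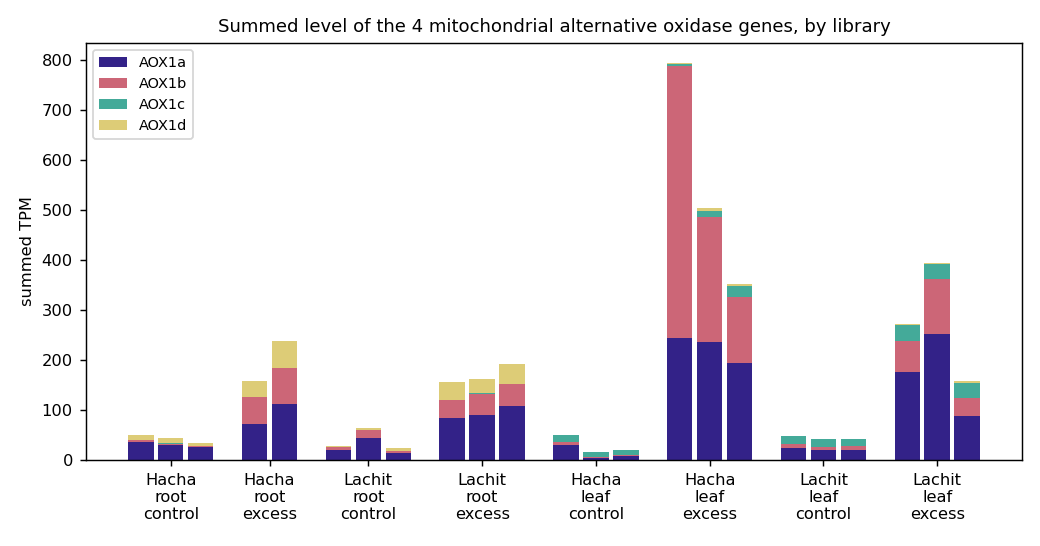
Summed TPM of the 4 mitochondrial alternative oxidase genes, 1 bar per library, stacked by gene from 0 on a linear axis. Excess-iron leaves of Hacha reach 352 to 796 TPM, and AOX1b fills 38% to 68.4% of these bars.

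Among the 5 genes the response differed between the varieties past the threshold for AOX1b only, in root and in leaf. The test of the difference itself gave a log2 value of -2.49 in root (Lachit minus Hacha, SE 0.64, adjusted p = 0.021) and -3.79 in leaf (SE 0.93, adjusted p = 0.0242), so the rise was smaller in Lachit by 5.62-fold and 13.9-fold. In these tests 19.4% of all genes in root were called (6.98% lower) and 16.5% in leaf (7.96% lower). In root the value was -1.63 (adjusted p = 0.0115) without Lachit control library 2. With limma on log2(TPM + 1) it was -1.74, called with the filter (adjusted p = 0.0427) and not called without it (adjusted p = 0.0593). With limma on log2(TPM + 0.1) the root value was -1.97 (adjusted p = 0.0453). It lost the call without Hacha excess-iron library 2 (adjusted p = 0.0876) and when both organs shared a fit (adjusted p = 0.0925). In leaf it lost the call without any 1 of Hacha control libraries 2 and 3, Lachit control libraries 1, 2 and 3 or Lachit excess-iron library 1, with adjusted p between 0.052 and 0.063. It was -2.9 (adjusted p = 0.0453) without Hacha excess-iron library 1 and -4.07 (adjusted p = 0.0212) without the 2 leaf libraries that stood apart.

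The other members gave no called difference of response between the varieties, with intervals of unequal width. For AOX1a it was 0.04 in root (95% interval -1.1 to 1.19) and -1.38 in leaf (-3.17 to 0.42, adjusted p = 0.253). The leaf value of AOX1a was -2.44 (adjusted p = 0.0292) without Hacha control library 1 and -2.0 (adjusted p = 0.0173) without both libraries that stood apart. For AOX1c, which had few reads in roots, the difference was -1.24 in root (-2.62 to 0.135) and 0.51 in leaf (-0.68 to 1.71). For AOX1d the difference was 0.81 in root (-0.39 to 2.0) and -1.09 in leaf (-2.85 to 0.68). For PTOX it was 0.02 in root (-0.37 to 0.41) and -0.02 in leaf (-1.28 to 1.25), so a 2-fold difference in leaf lies within the interval.

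The ratio of AOX1b to AOX1a was taken within each library, without any scaling between libraries, and was not tested. It follows AOX1b relative to AOX1a, not the AOX1b response alone. Under excess iron its group mean was 8.3-fold that of control in Hacha roots and 1.5-fold in Lachit roots. In leaves this was 4.35-fold in Hacha, or 2.87-fold without excess-iron library 1, and 1.03-fold in Lachit. In Hacha roots the ratio was 0.084 ± 0.008 (SD, n = 3) in control and 0.694 ± 0.054 (n = 2) under excess iron, and in Lachit roots 0.292 ± 0.056 and 0.439 ± 0.034 (n = 3 each). In Hacha leaves it went from 0.305 ± 0.11 to 1.33 ± 0.8, with 2.23, 1.06 and 0.691 in the 3 excess-iron libraries and a mean of 0.876 without the first of them. In Lachit leaves it was 0.388 ± 0.0093 and 0.401 ± 0.04. In Hacha the excess-iron ratios lay above all control ratios in both organs, and in Lachit they did so in root but overlapped in leaf. Estimated counts were whole numbers, within 0.01, in 21 of 23 libraries for AOX1a and in 21 of 23 for AOX1b, and lay at most 0.33 and 0.14 reads from a whole number in the rest.

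**Figure D4:**
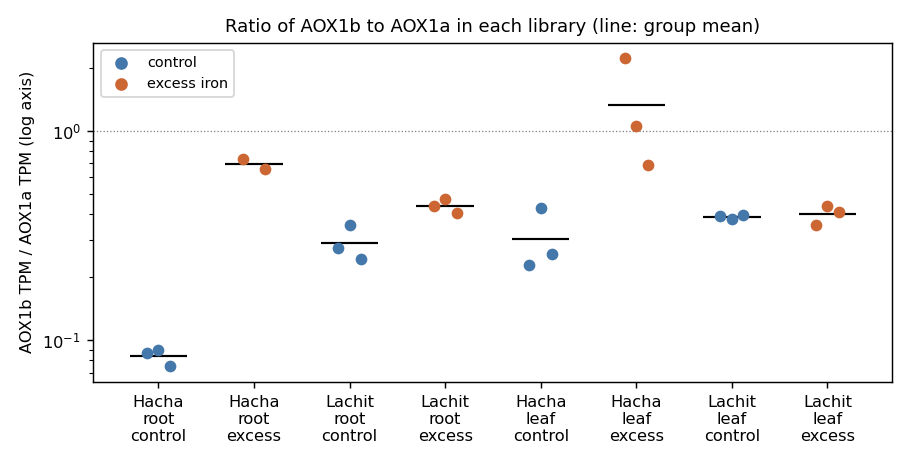
Ratio of the TPM of AOX1b to that of AOX1a in each library, on a log axis, with a line at the group mean and a dotted line at 1. Hacha control roots lie lowest, between 0.0749 and 0.0899, and 2 of the 3 excess-iron leaf libraries of Hacha lie above 1.

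Compared directly, the varieties differed in 2 of the 5 genes in control roots and 1 in excess-iron roots. In leaves they differed in 0 in control and 1 under excess iron. Of all tested genes, 29.7%, 46.7%, 19% and 42.6% were called in these comparisons, and 5 genes are too few to tell such counts from these shares. In control roots AOX1b was higher in Lachit, by 1.78 on the log2 scale (SE 0.47, adjusted p = 0.0147), and AOX1d lower, at -1.17 (SE 0.39, adjusted p = 0.042), where 29.7% of all genes were called. The AOX1b value was 0.93 (adjusted p = 0.0241) without Lachit control library 2, and the call was lost without Hacha control library 3 (adjusted p = 0.0508). The AOX1b call was also lost with both organs in 1 fit (adjusted p = 0.059) and with unfiltered limma on log2(TPM + 1) (adjusted p = 0.0543). The AOX1d call was lost without any 1 of 4 control root libraries, Hacha 1 and 2 and Lachit 1 and 2, with adjusted p between 0.0963 and 0.148. It was also lost in edgeR without the filter (adjusted p = 0.0597) and with both organs in 1 fit (adjusted p = 0.0543). The same held when only these 2 groups were fitted (adjusted p = 0.0572). In excess-iron roots AOX1c was lower in Lachit, at -1.57 (SE 0.46, adjusted p = 0.016; 46.7% of all genes called), which rests on 5 to 19 reads per library and was lost without Hacha library 1 (adjusted p = 0.114) or Lachit library 1 (adjusted p = 0.0512). AOX1b there had a log2 value of -0.71 (adjusted p = 0.208), and -0.75 with an adjusted p of 0.0109 when these 2 groups were fitted alone.

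In control leaves none of the 5 genes was called between the varieties by edgeR, where 19% of all genes were. The log2 value for AOX1a was 0.66 (adjusted p = 0.471), and 1.72 (adjusted p = 0.0311) without Hacha control library 1. AOX1b had 1.25 (edgeR, unadjusted p = 0.083, adjusted p = 0.216), the lowest unadjusted p of the 5 genes, and 1.97 (adjusted p = 0.0904) without that library. Under excess iron AOX1b was lower in Lachit leaves, at -2.55 (SE 0.66, adjusted p = 0.0113), and 42.6% of all genes were called. Its value was -1.66 (adjusted p = 0.0491) without Hacha library 1. AOX1c had a log2 value of 0.93 (95% interval 0.08 to 1.78, adjusted p = 0.0719) toward Lachit, and was called by DESeq2 at 0.91 (adjusted p = 0.048) and on log2(TPM + 1) by limma at 1.41 (adjusted p = 0.0169).

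Between the organs the members divided into leaf genes and a root gene. AOX1c was higher in leaves by 5.0 (SE 0.43, adjusted p = 5.25e-09) on the log2 scale in control Hacha and 5.68 (SE 0.44, adjusted p = 1.38e-09) in control Lachit, and by 4.18 and 6.76 under excess iron. PTOX was higher in leaves by 2.51 (SE 0.34, adjusted p = 2.35e-06) and 2.43 (SE 0.34, adjusted p = 3.44e-06) in control and by 3.35 and 3.38 under excess iron. AOX1d was lower in leaves, at -4.63 (SE 0.55, adjusted p = 5.16e-07) and -3.16 (SE 0.53, adjusted p = 3.62e-05) in control and at -3.4 and -3.68 under excess iron. These calls held in every alternative computed, although Hacha control library 1 moved the control PTOX value of Hacha to 1.91 when left out, and Lachit control leaf library 2 moved that of AOX1d in Lachit to -2.56. On log2(TPM + 1), which understates the change of low genes, the control differences by limma were 2.95 in Hacha and 3.49 in Lachit for AOX1c, -2.96 and -1.82 for AOX1d, and 1.53 and 1.77 for PTOX. The comparison between organs calls many genes, from 53.7% of all tested in excess-iron Hacha to 67% in control Hacha, with 66.1% in control and 58.1% in excess-iron Lachit.

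AOX1a and AOX1b were not called between organs in control plants, and were higher in leaves than roots of Hacha under excess iron. In control, AOX1a had log2 values of -0.52 in Hacha (adjusted p = 0.383) and 0.18 in Lachit (adjusted p = 0.785). The Hacha value was -1.57 (adjusted p = 0.00724) without Hacha control leaf library 1 and -1.46 (adjusted p = 0.00953) on log2(TPM + 1) with limma. Under excess iron in Hacha, AOX1a was higher in leaves by 1.64 (SE 0.6, adjusted p = 0.0275) and AOX1b by 2.72 (SE 0.71, adjusted p = 0.00349). The AOX1a call was lost without either Hacha root library or leaf library 1, with adjusted p between 0.0581 and 0.186, with library totals alone, at 1.23 (adjusted p = 0.0756), and with limma on log2(TPM + 0.1), at 1.31 (adjusted p = 0.0513), or on log2(TPM + 1) without the filter, at 1.3 (adjusted p = 0.054). The AOX1b value was 1.86 without leaf library 1. In excess-iron Lachit the values were 1.05 for AOX1a (adjusted p = 0.0871) and 0.95 for AOX1b (adjusted p = 0.169), and 1.42 (adjusted p = 0.00199) and 1.31 (adjusted p = 0.0417) without the 2 leaf libraries that stood apart.

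The response to iron differed between the organs past the threshold for AOX1a in Hacha, whose leaf rise exceeded the root rise by 2.16 on the log2 scale (SE 0.78, adjusted p = 0.0303), where 46.3% of all genes were called. It was 3.22 (adjusted p = 0.000665) without Hacha control leaf library 1. The call was lost without any 1 of control leaf libraries 2 and 3, excess-iron leaf library 1, control root library 1 and excess-iron root library 1, with adjusted p between 0.0563 and 0.133. In Lachit none of the 5 genes was called by edgeR, against 32% of all genes, and PTOX had the lowest unadjusted p, 0.0506. PTOX had differences of 0.84 in Hacha (adjusted p = 0.169) and 0.95 in Lachit (adjusted p = 0.122). Without the 2 leaf libraries that stood apart, these were 1.44 (adjusted p = 0.000101) and 1.25 (adjusted p = 0.000322), AOX1b in Hacha gave 2.35 (adjusted p = 0.03), and AOX1a in Lachit gave 1.24 (adjusted p = 0.0486).

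Ordered by mean TPM over the 8 groups, AOX1a ran from excess-iron leaves of Hacha (225 ± 27.2) and Lachit (172 ± 82.4) through excess-iron roots of Lachit (93.7 ± 12.7) and Hacha (91.9 ± 27.2) to the 4 control groups (13.9 to 30.8). The only neighbours in that order without overlap were the excess-iron roots of Hacha and the control roots of Hacha, and errors here are SD over the libraries of a group. For AOX1b, excess-iron leaves of Hacha (310 ± 212) did not overlap the next group, excess-iron leaves of Lachit (69.6 ± 37.6), and all excess-iron groups lay above all control groups. The AOX1d order began with the 4 root groups, excess iron first, and its lowest groups were the control leaves of Lachit (0.297 ± 0.203) and Hacha (0.24 ± 0.123). The organs overlapped there, as Lachit control roots spanned 2.3 to 4.95 TPM and the next group, excess-iron leaves of Hacha, 2.46 to 4.87 TPM. For AOX1c and PTOX the 4 leaf groups came before the 4 root groups, with no overlap between the organs.

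Across the 23 libraries, AOX1a and AOX1b had a Pearson r of 0.94 for log2 CPM, 0.92 in the 11 root libraries and 0.97 in the 12 leaf libraries. High values within organs were not particular to this pair. AOX1a and AOX1d had 0.91 in root and 0.9 in leaf, but 0.46 over all libraries. AOX1a and PTOX had 0.84 in root and 0.93 in leaf, and AOX1d and PTOX 0.93 and 0.78. AOX1c and PTOX had 0.93 over all libraries, 0.29 in root and 0.45 in leaf. AOX1c and AOX1d had an r of -0.66 over all libraries, 0.29 in root and 0.2 in leaf. These values describe libraries that share organ, solution and variety. Of 18156 genes with at least 10 CPM in a group, those most like AOX1a over the 23 libraries were OS01G0199400 (r = 0.978), OS03G0776900 (0.972) and OS03G0790500 (0.967). Those most like AOX1b were OS05G0527000 (0.964), OS03G0776900 (0.952) and OS05G0526700 (0.952), so OS03G0776900 stood among the nearest 3 of both. For AOX1c the nearest were OS04G0281900 (0.986), OS05G0586600 (0.985) and OS10G0330400 (0.985), each highest on average in excess-iron leaves of Lachit. For AOX1d they were OS06G0199800 (0.967), OS07G0584283 (0.957) and OS05G0310600 (0.952), and for PTOX OS02G0148500 (0.985), OS12G0633600 (0.983) and OS06G0710300 (0.98). No member was among the nearest 3 of another.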

How the data were processed

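The authors' estimated counts and TPM values came as 1 table per library from kallisto, named with bcl2fastq and IRGSP-1.0 in the submitters' processing notes; for these no versions or settings are given in the sources used here. The libraries were built with an Illumina TruSeq kit that does not mark strand, so antisense reads cannot be told apart. The deposited TPM values are scaled to transcript length and library total. The transcript lengths and effective lengths, score values in the authors' files, were only read off. A deposited series-wide TPM table played no part.

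Estimated counts of the 42346 transcripts were added up per gene and rounded. edgeR 4.0.16 (R 4.3.3) was used with filterByExpr, TMM and a robust quasi-likelihood fit, separately for root (27479 genes) and leaf (25505), and over all 8 groups (29243) for comparisons of organs. SE is the log2 fold change over the square root of F. Fold changes come from counts, levels from TPM. Intervals cover replicate spread only. Alternatives were RLE factors, library totals, no filter, DESeq2 1.42.0, limma 3.58.1 on log2(TPM + 1) or log2(TPM + 0.1), other sets of groups, CPM for the summed level, and leaving out each library. Replicates differed beyond counting noise (chi-square per gene 7.69 to 277).

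No measured value entered the rule that names the 5 genes. The genes, lists and tests were still chosen with earlier results of these data known. Named besides the 5 genes are the 3 with the highest Pearson r to each. RefSeq annotation (ASM3414082v1) matched 1 identifier of the files and none of the 5 genes, so the lists of other respiratory genes and of organ markers and the promoter motifs were not used.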

Additional observations from a re-analysis of the deposited data

Results flagged for a closer look

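The difference of the iron response between the varieties passed the edgeR test for AOX1b in both organs. Its log2 value, Lachit minus Hacha, was -2.49 in root and -3.79 in leaf. In these tests 19.4% of all genes were called in root and 16.5% in leaf. The root call was lost with both organs in 1 fit (adjusted p = 0.0925). It was also lost with limma on log2(TPM + 1) without the filter (adjusted p = 0.0593). The leaf call was lost without some single libraries, with adjusted p up to 0.063. The difference between organs passed for AOX1a in Hacha, at 2.16 (log2, leaf minus root), where 46.3% of all genes were called. That call was also lost without some single libraries. Groups of 2 or 3 libraries are too small to test a single library as an outlier.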

How the results depend on the processing

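No paired analysis was possible because each library carries a running number of its own in the labels and no number is shared between groups. The numbers run through all excess-iron libraries first and then all controls, group by group. The labels do not say what the numbers stand for. An effect of that order, if any, cannot be told apart from the solution or the group. Leaving out the 2 leaf libraries was chosen after seeing the data, and of the gene-level results it gave 9 a call and cost none; leaving out Hacha excess-iron leaf library 1 instead cost 2. The rises of AOX1a, AOX1b and AOX1d under excess iron kept direction and call in every alternative in all 4 comparisons, PTOX kept its direction, and none of the summed levels or AOX1a shares crossed the threshold. Over the gene-level results printed and their alternatives, 840 kept direction and call, 45 lost the call, 38 gained one and 38 turned sign. These totals leave out the variety difference of the AOX1c response.

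All sign changes were of results without a call. The AOX1c change in Lachit roots ran from -0.66 to 0.13 and that in Hacha leaves from -0.25 to 0.58 when single libraries were left out, and the latter was -0.01 with limma on log2(TPM + 0.1). The variety difference of the AOX1a response in root was -0.007 with RLE, -0.001 with both organs in 1 fit, -0.009 with DESeq2, and -0.26 to 0.65 without single libraries. That of PTOX in root was -0.034 with RLE, -0.03 without the filter, -0.032 with both organs and with DESeq2, and -0.052 to 0.088 without single libraries. That of PTOX in leaf was 0.3 with library totals, 0.026 without the filter, 0.073 with both organs, 0.151 with limma on log2(TPM + 1), filtered or not, 0.144 on log2(TPM + 0.1), and -0.63 to 0.32 without single libraries. AOX1a between control Lachit leaves and roots was -0.258 with library totals, -0.16 with limma at pseudocount 1, -0.161 at 0.1, and -0.102 to 0.77 without single libraries.

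Of the 5 genes, the number called for the variety difference of response in root was 0 instead of 1 with both organs in 1 fit and with limma without the filter, and 0 to 1 without single libraries. In leaf it was 2 without the 2 leaf libraries and 0 to 2 without single ones. Between varieties the number was 1 instead of 2 in control roots without the filter, with only the groups compared and with unfiltered limma, 0 with both organs, and 1 to 2 without single libraries. In excess roots it was 2 with only the groups compared and 0 to 1 without single libraries, in control leaves 1 without the 2 leaf libraries and 0 to 1 without single ones, and in excess leaves 2 with library totals, both organs, DESeq2 and all limma fits and 1 to 2 without single libraries. For the response of leaf against root, Hacha had 3 with limma on log2(TPM + 1) and without the 2 leaf libraries, 2 with the other limma fits, and 0 to 3 without single libraries. Lachit had 1 with library totals and limma at 0.1, 2 with the other limma fits and without the 2 leaf libraries, and 0 to 1 without single libraries. Between organs under excess iron, Lachit had 5 without the 2 leaf libraries. Smaller moves were those of Hacha between organs under excess iron, 4 instead of 5 with library totals, limma at 0.1 and unfiltered limma, and in control, 4 instead of 3 with all limma fits and without the 2 leaf libraries. Against control, Hacha roots had 3 to 5, Lachit roots 3 to 4 and Lachit leaves 4 to 5 of the 5 genes called over the alternatives that keep all libraries. The cause of these moves was not tested. Calls over all tested genes moved with the setting as well. Between varieties in excess leaves, 5734 genes were higher and 5130 lower in the main fit, against 9431 and 3074 with library totals. For the response of leaf against root in Lachit these were 5072 and 4294, against 8834 and 3395 with limma at 0.1. The counts in this paragraph cover the 5 genes only and were not set against all genes in each setting.

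Library totals moved the median log2 fold change of all genes, and with it the share of called genes that were higher. The median went from -0.05 to -0.31 in Hacha roots (47.6% to 35.2% higher), 0.02 to 0.29 in Lachit leaves (50.8% to 70.3%), 0.09 to 0.25 for the variety difference of response in root (64% to 79.2%) and 0.09 to 0.44 for that in leaf (51.6% to 72.8%). Between varieties it went from 0.06 to 0.46 in excess leaves (52.8% to 75.4%), and in control roots the share went from 48.9% to 38.3%. Between organs it went from -0.15 to -0.79 in control Hacha (44.3% to 26.9%), -0.24 to -0.67 in control Lachit (41.2% to 29.3%), 0 to -0.39 in excess Hacha (49% to 32.6%) and -0.04 to -0.17 in excess Lachit, and for the organ difference of response from 0.08 to 0.32 in Hacha (50.1% to 61.2%) and 0.11 to 0.41 in Lachit (54.2% to 71.7%). With limma on log2(TPM + 0.1) the medians of these comparisons lay between -0.77 and 0.41. AOX1c in roots and AOX1d in control leaves rest on few reads.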
